A study of Mus musculus with 42 samples.

Results

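The genes described here are 10 genes of major histocompatibility complex (MHC) class I antigen presentation in mouse macrophages. They are the heavy chains H2-K1 and H2-D1, their light chain B2m, the peptide transporter subunits Tap1 and Tap2, the loading factor Tapbp, the immunoproteasome subunits Psmb8, Psmb9 and Psmb10, and the transactivator Nlrc5. They were chosen by symbol from the deposited table of gene counts, and all 10 were present among its 11160 genes and passed the filter on low counts.

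The macrophages were grown from bone marrow for 6 days with the growth factor M-CSF, detached and plated again, and used the next day. The genotypes were WT and KO of MS4A4A, a membrane protein of macrophages; the labels do not say how the knockout was made, nor the strain, sex or age of the mice. Besides untreated cells, each genotype has cells given vehicle, or dexamethasone (Dex) at 1 µM, for 2, 8 and 24 h; Dex is a man-made glucocorticoid that activates the glucocorticoid receptor. This gave 14 groups of 3 libraries, 42 in all, made with a SMART-Seq mRNA kit. The series asks what MS4A4A does in the corticosteroid response. The labels do not tie the replicates to separate cultures or mice, so a p-value here is set against variation among these libraries alone, part of which may be technical.

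MHC class I molecules show peptides from inside the cell to CD8 T cells. The proteasome cuts proteins into peptides, and interferon lets its catalytic subunits be replaced by the immunoproteasome subunits, which changes the cuts. The Tap1 and Tap2 dimer carries the peptides into the endoplasmic reticulum, where tapasin, the product of Tapbp, holds the transporter to an empty heavy chain and B2m until a peptide binds. Nlrc5 is drawn to class I promoters through a conserved module of boxes and switches on the genes of this pathway, and glucocorticoids are known to hold back much of the interferon response in macrophages.

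Of the 10 genes, 7 lie on chromosome 17 of GRCm38 (GENCODE M21), and all are annotated as protein-coding. H2-K1 spans chr17:33996017-34000347 on the minus strand and H2-D1 chr17:35262730-35267499 on the plus strand. Between them lie Psmb9 (chr17:34181987-34187764, minus), Tap1 (chr17:34187553-34197225, plus), Psmb8 (chr17:34197721-34201454, plus) and Tap2 (chr17:34203527-34216321, plus), next to one another, while Tapbp (chr17:33915899-33929292, plus) lies on the other side of H2-K1. B2m is on chromosome 2 (122147686 to 122153083, plus), and Psmb10 (105935735 to 105938444, minus) and Nlrc5 (94434356 to 94527272, plus) are on chromosome 8. Tap1 and Psmb9 point away from each other, with 225 bases between their RefSeq starts (chr17:34187331-34187555), and in GENCODE their annotations overlap. The sources used here do not give whether strand was used in counting, so reads in that overlap cannot be told apart.

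RefSeq promoter windows (GRCm38.p6, from 250 bases before to 50 after the start) were at hand for 8 of the 10 genes, all but Tap2 and Nlrc5. The bases before the starts of H2-K1 and B2m are shown because the results compare this heavy chain with its light chain, and pieces of the H2-D1 window because H2-D1 was the gene of the 10 without a call in any comparison. Sequences run 5′ to 3′ on the gene's strand, and capitals mark matches on either strand to the motifs named after them. H2-K1 is chr17:34000348-34000597 (minus), B2m is chr2:122147437-122147685 (plus), and the H2-D1 pieces are chr17:35262918-35262947 and chr17:35262993-35263022 (plus). Both H2-D1 pieces lie before the RefSeq start (from -176 and -101), but inside the GENCODE span of H2-D1, where each overlaps 1 annotated exon; the H2-K1 and B2m bases overlap 0 exons.
H2-K1: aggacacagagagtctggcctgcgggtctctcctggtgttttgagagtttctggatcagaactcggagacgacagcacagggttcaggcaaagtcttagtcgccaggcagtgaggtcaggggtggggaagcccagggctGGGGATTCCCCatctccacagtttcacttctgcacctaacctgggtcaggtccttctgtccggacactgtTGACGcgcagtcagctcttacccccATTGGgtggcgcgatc
B2m: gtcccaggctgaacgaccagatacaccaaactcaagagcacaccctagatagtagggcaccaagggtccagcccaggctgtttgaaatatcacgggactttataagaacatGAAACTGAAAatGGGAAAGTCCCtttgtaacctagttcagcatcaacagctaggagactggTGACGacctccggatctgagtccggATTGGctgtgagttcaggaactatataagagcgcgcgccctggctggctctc
H2-D1, first piece: gggctGGGGATTCCCCatctcctcagtttc
H2-D1, second piece: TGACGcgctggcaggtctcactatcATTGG

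The motifs searched were GAAA, any 2 bases and GAAA (interferon-stimulated response element core), GGGA, any 4 bases and CC (kappa B), ACANNNTGT (glucocorticoid response element core), TGACG (core of the X2 box) and CCAAT (Y box), on both strands. Of all 32851 promoter windows in the table, 3.44% hold the first, 20.7% the second, 6.85% the third, 20.8% TGACG and 37.4% CCAAT. H2-K1 and H2-D1 both hold the kappa B letters as the same palindrome, which gives a pair of overlapping matches. Their kappa B pieces match in 29 of 30 bases and their pieces from TGACG to the Y box in 23 of 30. B2m was the member with a match to the interferon-stimulated response element core, followed by kappa B, TGACG and the Y box. For the other windows this says only that these exact letters are absent, since looser forms were not searched. TGACG was also found in the shared region of Tap1 and Psmb9. No window of the 8 genes held ACANNNTGT, which says only that these letters are not in these windows.

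The libraries held 10140211 to 33528397 estimated counts (median 27998690). The 8 macrophage markers examined were all measured and summed to between 18027 and 42243 CPM (counts of a gene per 1000000 counts of its library, scaled by TMM) in every library. Of markers of other cells, 1 of 6 for T cells (Cd4, 1.68 to 23.3 CPM), 1 of 5 for B cells (Cd79b, 0.482 to 3.74), 1 of 4 for mast cells (Kit, 0.482 to 15.1), 0 of 4 for NK cells, 3 of 6 for neutrophils (sum 12.2 to 89.7), 4 of 7 for dendritic cells (5.11 to 17.3) and 5 of 6 for stromal cells (2.05 to 64.6) were measured. Ms4a4a, the targeted gene, was lower in KO but still present, at 91.9, 81.8 and 93.5 CPM in untreated WT and 44.3, 46.3 and 49.6 CPM in untreated KO libraries. 1 library stood apart, KO vehicle 24 h replicate 2, with 69.9 CPM of the glucocorticoid-induced gene Fkbp5 against 14.2 and 16.9 CPM in the other two and 617 to 947 CPM after 24 h of Dex. The main results that rest on the 24 h vehicle groups are also given without it.

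Levels between genes were compared per kilobase of exon, with all annotated exons of a gene joined. This gives 3781 bases for Tap2 and 3660 for Psmb9, where their longest transcripts have 3442 and 2884. Order and overlap of genes with close levels may depend on this choice. In untreated WT cells B2m was highest at 7073 ± 520 CPM per kilobase (mean ± SD, n = 3, as for all such values), followed by H2-D1 at 2251 ± 85.3 and H2-K1 at 629 ± 35.9. Tapbp stood at 233 ± 7.24, well above the other loading genes. The immunoproteasome subunits Psmb8 and Psmb10 had 53.7 ± 5.33 and 43.1 ± 3.28 CPM per kilobase. Psmb9 (20.6 ± 2.24), Tap2 (20.6 ± 2.13) and Tap1 (18.9 ± 1.31) could not be ordered, since their libraries overlapped. Nlrc5 was the lowest at 4.74 ± 0.683. With these joined exon lengths, no neighbours in the WT order overlapped after 24 h of vehicle. B2m stood at 4466, H2-D1 at 2155, H2-K1 at 372, Tapbp at 104.5, Tap2 at 16.97, Psmb9 at 12.8, Tap1 at 8.46 and Nlrc5 at 2.64 CPM per kilobase. Untreated KO cells had the same order, with overlap also between Psmb8 (57.7 ± 13.8) and Psmb10 (45.2 ± 13.8).

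The first comparison set cells kept with vehicle beside untreated cells, averaged over WT and KO, to show how the pathway moved without steroid. It joins time in culture and the vehicle, which cannot be told apart. Class I genes fell over the day: 3 of 10 were lower at 2 h, 8 at 8 h and 9 at 24 h by edgeR's quasi-likelihood test at an adjusted p below 0.05, with the same counts by DESeq2. At each of these times 0 of the 10 were higher by either tool. Over all genes tested, 6.72% were called lower and 7.03% higher at 2 h, 9.66% lower and 8.49% higher at 8 h, and 15.4% lower and 15.6% higher at 24 h. The median log2 difference of the 10 genes was -0.15 at 2 h, -0.64 at 8 h and -0.76 at 24 h, where that of all genes was -0.01, -0.00 and -0.00. In bulk RNA, fewer cells of a type and less RNA per cell cannot be told apart.

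**Figure D1:**
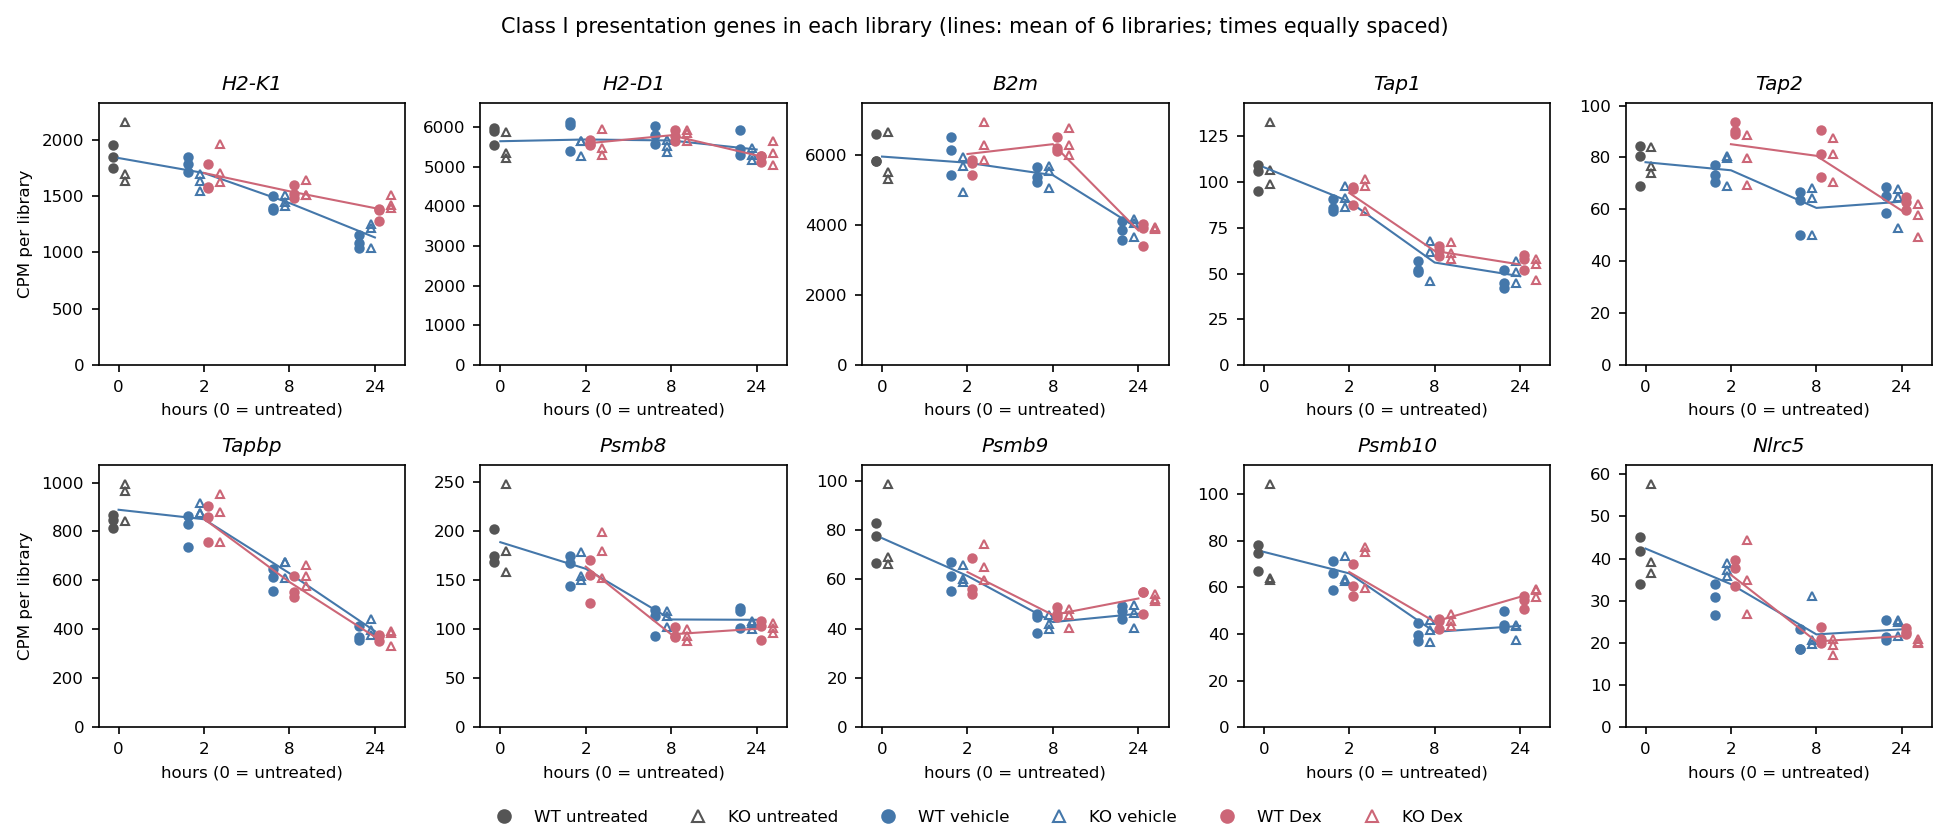
CPM of each of the 10 genes in each library (y axis from 0) against hours (x axis, times equally spaced; 0 is untreated); circles are WT, triangles KO, grey untreated, blue vehicle, red Dex, and lines join the mean of 6 libraries. For 9 of the 10 genes the blue points at 24 h lie below the grey ones, those of H2-D1 overlap with them, and all red B2m and Tap2 points stand above the blue ones at 8 h.

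Of the heavy chains, H2-K1 fell, and the H2-D1 difference did not pass the test. H2-K1 was at 1745, 1955 and 1845 CPM in untreated WT and 2155, 1694 and 1629 CPM in untreated KO libraries. After 24 h of vehicle it was at 1087, 1155 and 1038 CPM in WT and 1252, 1219 and 1040 CPM in KO. Every vehicle library lay below every untreated one. The log2 difference was -0.35 ± 0.06 at 8 h (SE; adjusted p = 3.00e-05) and -0.70 ± 0.06 at 24 h (adjusted p = 1.86e-11, edgeR quasi-likelihood, Benjamini-Hochberg).

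H2-D1 had 5963, 5553 and 5896 CPM in untreated WT and 5876, 5212 and 5332 CPM in untreated KO libraries. At 24 h of vehicle the values were 5454, 5298 and 5924 CPM in WT and 5158, 5456 and 5287 CPM in KO. The groups overlapped, and the log2 difference of -0.05 had a 95% interval from -0.14 to 0.03 (adjusted p = 0.333, edgeR quasi-likelihood). H2-K1 and H2-D1 are close paralogs, and estimated counts share reads between such genes. With the counts of H2-K1 and H2-D1 summed, the difference was -0.19 at 24 h (adjusted p = 4.04e-04) and -0.08 at 8 h (adjusted p = 0.199, edgeR quasi-likelihood). The sum is mostly H2-D1 counts, so the lack of an 8 h call in it does not decide on the H2-K1 call.

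B2m, the light chain of every class I molecule, fell late. It was at 5822, 5827 and 6599 CPM in untreated WT and 6671, 5530 and 5306 CPM in untreated KO libraries. At 8 h of vehicle it had a log2 difference of -0.13 ± 0.06 that did not pass (adjusted p = 0.127). At 24 h it stood at 3848, 4110 and 3565 CPM in WT and 4059, 4165 and 3656 CPM in KO, below every untreated library, with a log2 difference of -0.61 ± 0.06 (adjusted p = 8.94e-10, edgeR quasi-likelihood).

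The transporter subunits fell by unequal amounts. Tap1 was at 109, 106 and 95.4 CPM in untreated WT and 133, 99.2 and 106 CPM in untreated KO libraries, and at 24 h of vehicle at 52.1, 42.04 and 44.9 CPM in WT and 56.8, 50.8 and 44.6 CPM in KO. That is a log2 difference of -1.16 ± 0.08 (adjusted p = 3.16e-13), with -0.95 ± 0.08 already at 8 h. Tap2 went from 84.5, 80.6 and 69.0 CPM in WT and 84.2, 73.9 and 76.8 CPM in KO to 65.2, 58.5 and 68.7 CPM in WT and 52.8, 64.7 and 67.8 CPM in KO. Its log2 difference was -0.31 ± 0.08 (adjusted p = 0.00424, edgeR quasi-likelihood). Tapbp, which bridges transporter and heavy chain, had the largest fall of the 10 at 24 h, from 816, 867 and 848 CPM in untreated WT and 993, 843 and 966 CPM in untreated KO libraries to 370, 354 and 414 CPM in WT and 398, 444 and 375 CPM in KO. The log2 difference was -0.50 ± 0.06 at 8 h and -1.18 ± 0.06 at 24 h (adjusted p = 2.87e-16). For all 3 genes the untreated and 24 h vehicle libraries did not overlap.

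The immunoproteasome subunits fell by 8 h. Psmb8 was at 168, 202 and 175 CPM in untreated WT and 247, 180 and 158 CPM in untreated KO libraries, and at 8 h of vehicle at 113, 119 and 93.2 CPM in WT and 118, 113 and 102 CPM in KO. Psmb9 went from 66.6, 82.7 and 77.5 CPM in WT and 98.6, 68.9 and 66.1 CPM in KO to 44.7, 45.8 and 38.4 CPM in WT and 45.4, 39.8 and 41.8 CPM in KO. Psmb10 went from 67.3, 78.2 and 74.9 CPM in WT and 104, 63.2 and 63.9 CPM in KO to 39.4, 44.5 and 37.1 CPM in WT and 45.9, 41.9 and 36.6 CPM in KO. For each subunit all 6 vehicle libraries at 8 h lay below all 6 untreated ones, and KO untreated replicate 1 was the highest library. At 8 h the log2 differences were -0.78 ± 0.09, -0.85 ± 0.09 and -0.88 ± 0.09, and at 24 h -0.79 ± 0.09, -0.74 ± 0.09 and -0.79 ± 0.09. Without KO untreated replicate 1 they were -0.67, -0.74 and -0.73 at 8 h, and all passed.

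Nlrc5 was at 45.1, 41.8 and 33.9 CPM in untreated WT and 36.6, 39.1 and 57.6 CPM in untreated KO libraries. At 8 h of vehicle it had 18.6, 18.5 and 23.3 CPM in WT and 19.8, 20.7 and 31.1 CPM in KO, a log2 difference of -0.96 ± 0.12 (adjusted p = 9.68e-08), and at 24 h the difference was -0.87 ± 0.11. The 2 h calls were smaller: Tap1 -0.28 ± 0.08 (adjusted p = 0.0187), Psmb9 -0.32 ± 0.08 (0.00825) and Nlrc5 -0.33 ± 0.11 (0.0458), with overlap between groups in each. Leaving out 1 library at a time, Nlrc5 was called in 4 of 12 fits (-0.39 to -0.22), and Tap1 and Psmb9 in 11 of 12, both being lost without KO untreated replicate 1 (-0.20 and -0.21, adjusted p = 0.101 and 0.0643). The 8 h and 24 h calls held in 12 of 12 fits for each gene. Without KO vehicle 24 h replicate 2, the 24 h differences were -0.71 for H2-K1, -0.63 for B2m, -1.15 for Tap1, -1.21 for Tapbp, -0.74 for Psmb9, -0.33 for Tap2, -0.79 for Psmb8, -0.81 for Psmb10 and -0.89 for Nlrc5, and 9 of the 10 genes were called.

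When in the day each gene moved was read from the steps between vehicle times, a comparison added after the values had been seen. From 2 to 8 h of vehicle, 8 of the 10 genes fell and 0 rose, where 12.6% of all genes fell and 11.1% rose. The genes without a call were H2-D1 (-0.01 ± 0.04) and B2m (-0.09 ± 0.06). From 8 to 24 h, 3 fell and 0 rose, where 8.03% of all genes fell and 9.08% rose. Those 3 were H2-K1 (-0.35 ± 0.06), B2m (-0.48 ± 0.06) and Tapbp (-0.68 ± 0.06). Over this second step Psmb8 moved by -0.01 ± 0.09, Psmb9 by 0.11 ± 0.09, Psmb10 by 0.09 ± 0.09, Nlrc5 by 0.08 ± 0.12 and Tap2 by 0.06 ± 0.08, and Tap1 by -0.21 ± 0.08 (adjusted p = 0.0838, edgeR quasi-likelihood). The proteasome subunits, Tap2 and Nlrc5 thus had their called fall by 8 h, and B2m had its own after 8 h. Leaving out KO vehicle 24 h replicate 2, again 3 genes fell from 8 to 24 h, with H2-K1 at -0.36, B2m at -0.50 and Tapbp at -0.72.

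**Figure D2:**
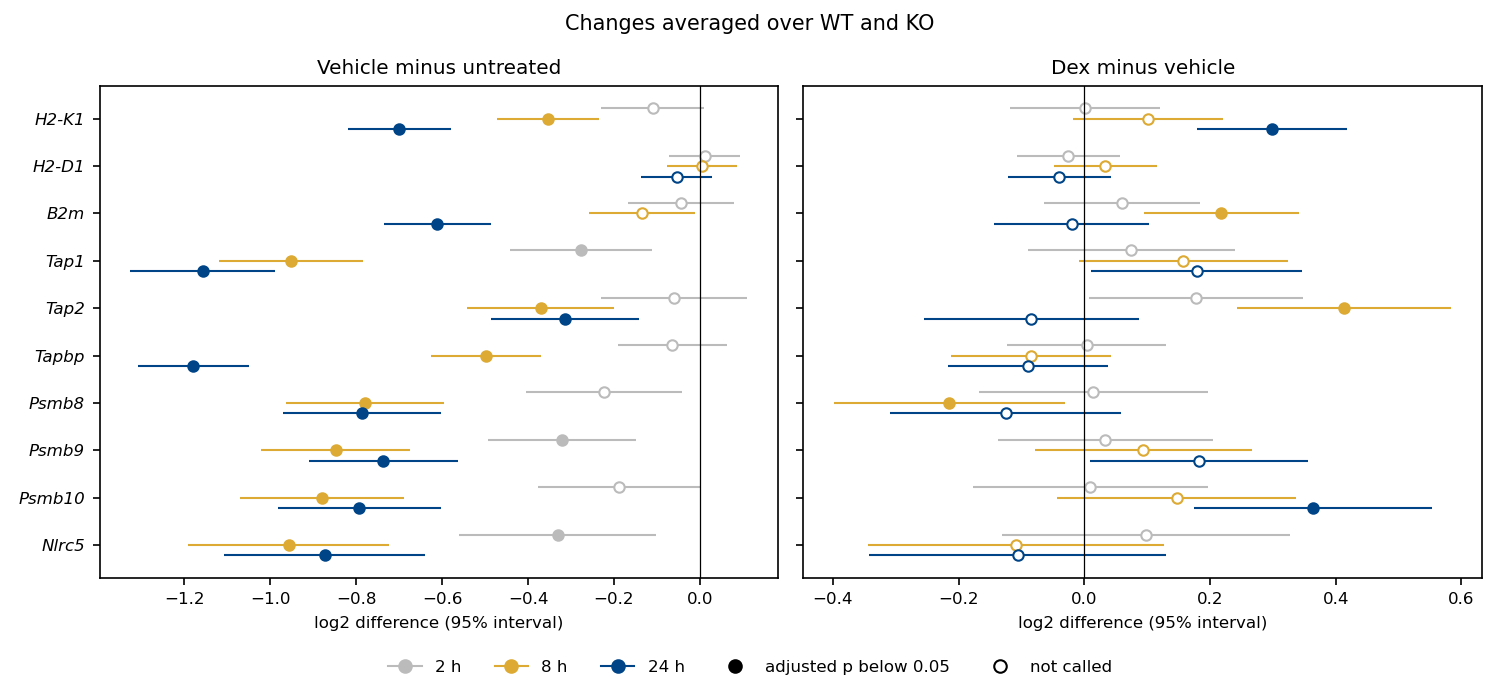
Log2 differences of the 10 genes (x axis, with 95% intervals) averaged over WT and KO, for vehicle minus untreated (left) and Dex minus vehicle (right) at 2, 8 and 24 h; filled points have an adjusted p below 0.05. Left, all filled points lie below 0 and reach -1.18 for Tapbp; right, the points lie between -0.21 and 0.41 and few are filled.

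The second comparison asked what Dex did to these genes against vehicle of the same time, averaged over WT and KO. Few class I genes were called, and the largest log2 difference of the 10 was 0.41, for Tap2 at 8 h. At 2 h 0 of 10 were called, with 1 at an unadjusted p below 0.05 (Tap2, 0.18 ± 0.08) and 0 called by DESeq2, where 8.14% of all genes were called higher and 6.41% lower. At 8 h 2 were higher and 1 lower, where 27.5% of all genes were called higher and 24.7% lower. At 24 h 2 were higher and 0 lower, where 26.8% of all genes were called higher and 26.8% lower. A share of 3 in 10 at 8 h and 2 in 10 at 24 h is below that of all genes, of which 52.2% and 53.6% were called in either direction.

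At 8 h, Tap2 and B2m were higher with Dex. Tap2 was at 66.6, 50.3 and 63.5 CPM with vehicle and 90.5, 72.5 and 81.3 CPM with Dex in WT, and at 68.4, 50.0 and 64.5 CPM with vehicle and 87.5, 70.5 and 81.4 CPM with Dex in KO. All Dex libraries lay above all vehicle libraries, with a log2 difference of 0.41 ± 0.08 (adjusted p = 9.28e-05, edgeR quasi-likelihood). B2m was at 5365, 5657 and 5223 CPM with vehicle and 6132, 6209 and 6509 CPM with Dex in WT, and at 5695, 5074 and 5555 CPM with vehicle and 6762, 5994 and 6278 CPM with Dex in KO. Here too the groups did not overlap, and the log2 difference was 0.22 ± 0.06 (adjusted p = 0.00298). Both calls held in 12 of 12 fits without 1 library.

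Psmb8 was the gene lower with Dex at 8 h, at 92.2, 102 and 92.7 CPM in WT and 99.6, 92.6 and 87.9 CPM in KO, overlapping the vehicle libraries given above. Its log2 difference was -0.21 ± 0.09 (adjusted p = 0.0450, edgeR quasi-likelihood), and the call held in 4 of 12 fits without 1 library (-0.26 to -0.19). With the replicate number as a block, which the check of the numbers allowed at 8 h, it was -0.21 (adjusted p = 0.00562).

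At 24 h the Tap2 and B2m differences did not pass: -0.08 ± 0.08 for Tap2 (95% interval -0.26 to 0.09) and -0.02 ± 0.06 for B2m (-0.14 to 0.10). The Dex effect at 24 h minus that at 8 h was -0.50 ± 0.12 for Tap2 (adjusted p = 0.00180) and -0.24 ± 0.09 for B2m (adjusted p = 0.0384, edgeR quasi-likelihood), 2 of the 10 genes, where 25.9% of all genes were called in this comparison. The Tap2 call held in 24 of 24 fits without 1 library and the B2m call in 10 of 24 (-0.27 to -0.20). Without KO vehicle 24 h replicate 2 the values were -0.48 (adjusted p = 0.00421) and -0.22 (adjusted p = 0.0730). Between 2 and 8 h the Dex effect changed in 0 of the 10 genes, with 0 at an unadjusted p below 0.05 and 0 by DESeq2, where 31% of all genes were called.

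At 24 h H2-K1 and Psmb10 were higher with Dex. H2-K1 was at 1381, 1378 and 1277 CPM in WT and 1512, 1390 and 1416 CPM in KO after Dex, above every vehicle library, with a log2 difference of 0.30 ± 0.06 (adjusted p = 5.89e-05, edgeR quasi-likelihood). It stayed below every untreated library. Psmb10 was at 56.3, 54.8 and 50.6 CPM with Dex in WT and 58.8, 59.3 and 56.0 CPM in KO, against 49.7, 43.9 and 42.5 CPM and 43.5, 44.1 and 37.2 CPM with vehicle. Its log2 difference was 0.36 ± 0.09 (adjusted p = 0.00133), again without overlap. Without KO vehicle 24 h replicate 2 the differences were 0.30 for H2-K1 (adjusted p = 1.23e-04) and 0.38 for Psmb10 (adjusted p = 0.00207). With H2-K1 and H2-D1 counts summed, the 24 h difference was 0.02 (adjusted p = 0.627, edgeR quasi-likelihood). Most counts of this sum are from H2-D1, so the lack of a call in it does not decide on the H2-K1 call.

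Of the other 8 genes at 24 h, Tap1 (0.18 ± 0.08, adjusted p = 0.0666) and Psmb9 (0.18 ± 0.08, adjusted p = 0.0696) missed the threshold by edgeR quasi-likelihood, and passed it in 3 and 1 of 12 fits without 1 library. H2-D1 (-0.04), Tapbp (-0.09), Psmb8 (-0.12) and Nlrc5 (-0.11) had 95% intervals from -0.12 to 0.04, -0.22 to 0.04, -0.31 to 0.06 and -0.34 to 0.13. Markers of other cells moved in the same 24 h comparison. The 5 measured stromal markers were all higher with Dex, their sum going from 6.71 to 23.5 CPM with vehicle to 13.5 to 64.6 CPM with Dex in WT libraries and from 8.51 to 21.4 CPM to 24.0 to 61.6 CPM in KO libraries. The 4 dendritic markers summed to 11.1 to 17.3 CPM with vehicle and 5.29 to 7.23 CPM with Dex in WT, and to 12.2 to 15.7 and 5.11 to 6.16 CPM in KO, with 1 of the 4 listed at 0 in a library of either Dex group. The 4 did not move together: Flt3 was higher (4.17 ± 0.45), Itgax (-2.16 ± 0.21) and Ccr7 were lower, and Zbtb46 had 0.36 ± 0.30 (adjusted p = 0.324, edgeR quasi-likelihood). The T cell marker Cd4 (-1.74 ± 0.23), the B cell marker Cd79b (-1.53 ± 0.23) and the mast cell marker Kit (-1.71 ± 0.29) were lower with Dex, and 0 of the 3 neutrophil markers were called. Of the 8 macrophage markers 2 were higher, with Mertk at 1.22 ± 0.09, and 3 lower, with Fcgr1 at -0.90 ± 0.11, Cd68 at -0.35 ± 0.05 and Adgre1 at -0.33 ± 0.06. The part of all these markers in the class I results was not tested. In the vehicle comparison the macrophage markers summed to 21333 to 26290 CPM in untreated and 30488 to 39768 CPM in 24 h vehicle libraries. The 8 markers did not rise together: 3 were called higher and 2 lower at 24 h of vehicle (median log2 difference -0.02). Over all genes 15.6% were called higher and 15.4% lower there. The part of these markers in the vehicle results was not tested either.

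Within each genotype Dex was also set against vehicle. At 2 h 0 of the 10 genes were called in WT and in KO, with 1 at an unadjusted p below 0.05 in each and 0 by DESeq2, where 5.85% of all genes were called higher and 3.17% lower in WT and 5.76% and 4.63% in KO. At 8 h 2 of the 10 were higher and 0 lower in each genotype (19.8% and 17.2% of all genes in WT, 20.6% and 17.9% in KO), in both Tap2 and B2m. With the replicate block, which the check of the numbers allowed there, Psmb8 was also called in KO at 8 h, as lower (-0.25, adjusted p = 0.0253, edgeR quasi-likelihood). At 24 h again 2 were higher and 0 lower (20.7% and 21% of all genes in WT, 18.2% and 20.1% in KO), H2-K1 and Tap1 in WT and H2-K1 and Psmb10 in KO. Leaving out 1 library at a time, B2m at 8 h was called in 0 of 6 fits in WT (0.19 to 0.24) and 2 of 6 in KO (0.15 to 0.26), and Tap1 at 24 h in 2 of 6 in WT (0.22 to 0.39). For H2-K1 at 24 h they were 0.30 ± 0.08 in WT and 0.30 ± 0.08 in KO, for Psmb10 at 24 h 0.25 ± 0.13 and 0.48 ± 0.13, for Tap2 at 8 h 0.44 ± 0.12 and 0.39 ± 0.12, and for B2m at 8 h 0.21 ± 0.09 and 0.22 ± 0.09. Tap1 at 24 h had 0.29 ± 0.12 in WT and 0.07 ± 0.12 in KO, a difference of -0.23 ± 0.16 (adjusted p = 0.890, edgeR quasi-likelihood). The difference between genotypes was 0.23 ± 0.19 for Psmb10 at 24 h (95% interval -0.15 to 0.61; adjusted p = 0.890, edgeR quasi-likelihood). At 2, 8 and 24 h the Dex effect differed between KO and WT in 0 of the 10 genes by edgeR and 0 by DESeq2, and in 0% of all genes. At an unadjusted p below 0.05 there was 1 gene at 2 h and 0 at 8 and 24 h. Dex at 24 h in KO, without KO vehicle 24 h replicate 2, again gave 2 calls by edgeR quasi-likelihood, H2-K1 at 0.32 (adjusted p = 0.00711) and Psmb10 at 0.52 (adjusted p = 0.00712), and the difference between genotypes gave 0.

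The third comparison set KO beside WT. None of the 10 genes was called in the average over the 4 conditions without Dex or in the average over the 3 with Dex, by edgeR or by DESeq2, where 0.224% and 0.0538% of all genes were called. Without Dex, 3 of the 10 had an unadjusted p below 0.05, as had 933 of the 11160 genes tested. Nlrc5 was 0.19 higher in KO (95% interval 0.03 to 0.36; 32.4 against 28.3 CPM; adjusted p = 0.483), Tapbp 0.12 higher (0.03 to 0.21; 721 against 660 CPM; adjusted p = 0.380) and H2-D1 differed by -0.08 (-0.14 to -0.02; 5452 against 5752 CPM; adjusted p = 0.413, edgeR quasi-likelihood). With Dex 0 of the 10 had such a p, as had 852 of all genes tested, and Nlrc5 had -0.13 (-0.32 to 0.06). Over both averages the intervals of all 10 genes lay between -0.32 and 0.36 on the log2 scale. Within the 7 single conditions 0 of the 10 were called by either tool, and 0 had an unadjusted p below 0.05, where 0%, 0.00896% or 0.0448% of all genes were called. There were again 0 calls by edgeR without KO vehicle 24 h replicate 2, in the average without Dex (Nlrc5 0.18, Tapbp 0.11, H2-D1 -0.08) and with vehicle at 24 h.

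Next to the 10 genes, the rest of the pathway was read from lists of genes, which do not include them. Beside the counts of these lists stand the shares of all genes at 24 h. With vehicle 15.4% were called lower and 15.6% higher, and with Dex 26.8% lower and 26.8% higher. A count near these shares is not a trait of a list. Of 25 other class I and class I-like heavy chains, 13 were measured. After 24 h of vehicle 10 of them were lower and 2 higher (median log2 difference -0.69). H2-T22, H2-T23 and H2-T24, nonclassical heavy chains of the T region, were lower by -1.54 ± 0.11, -1.54 ± 0.06 and -2.68 ± 0.16. With 24 h of Dex 5 were higher and 2 lower (median 0.21). The higher ones included Fcgrt (1.34 ± 0.11), the heavy chain of the neonatal Fc receptor, Hfe (1.01 ± 0.07), which acts in iron control, and Mr1 (0.51 ± 0.08), which shows vitamin B metabolites to MAIT cells. All 3 need B2m as their light chain. H2-M3, which binds formylated peptides, was 0.28 ± 0.06 higher with Dex and 0.32 lower with vehicle (-0.32 ± 0.06).

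The peptide loading and trimming list had all 18 genes measured. Of these 4 were lower and 2 higher after 24 h of vehicle (median -0.03), the lower ones including the tapasin relative Tapbpl (-0.54 ± 0.06) and Erap1 (-0.49 ± 0.05), which trims peptides in the endoplasmic reticulum. With Dex at 24 h 5 were higher and 4 lower (median -0.03), where 26.8% of all genes were called higher and 26.8% lower. The chaperone Hspa5 (0.54 ± 0.06) and the peptidase Npepps (0.45 ± 0.06) rose, and the chaperone Canx (-0.27 ± 0.06) and the peptidase Thop1 (-0.32 ± 0.09) fell.

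Of 21 constitutive proteasome subunits, activators and assembly factors, all measured, 8 were lower and 0 higher after 24 h of vehicle (median -0.16). The activator subunits Psme1 and Psme2, which cap the proteasome and are induced by interferon gamma, had -0.96 ± 0.09 and -0.83 ± 0.11, the lowest values of the list. With Dex at 24 h 2 were higher and 4 lower (median -0.07): the core subunit Psma6 rose by 0.52 ± 0.06, and Psmb6 (-0.50 ± 0.09), Psme2 (-0.41 ± 0.11) and Psme1 (-0.29 ± 0.09) fell.

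**Figure D3:**
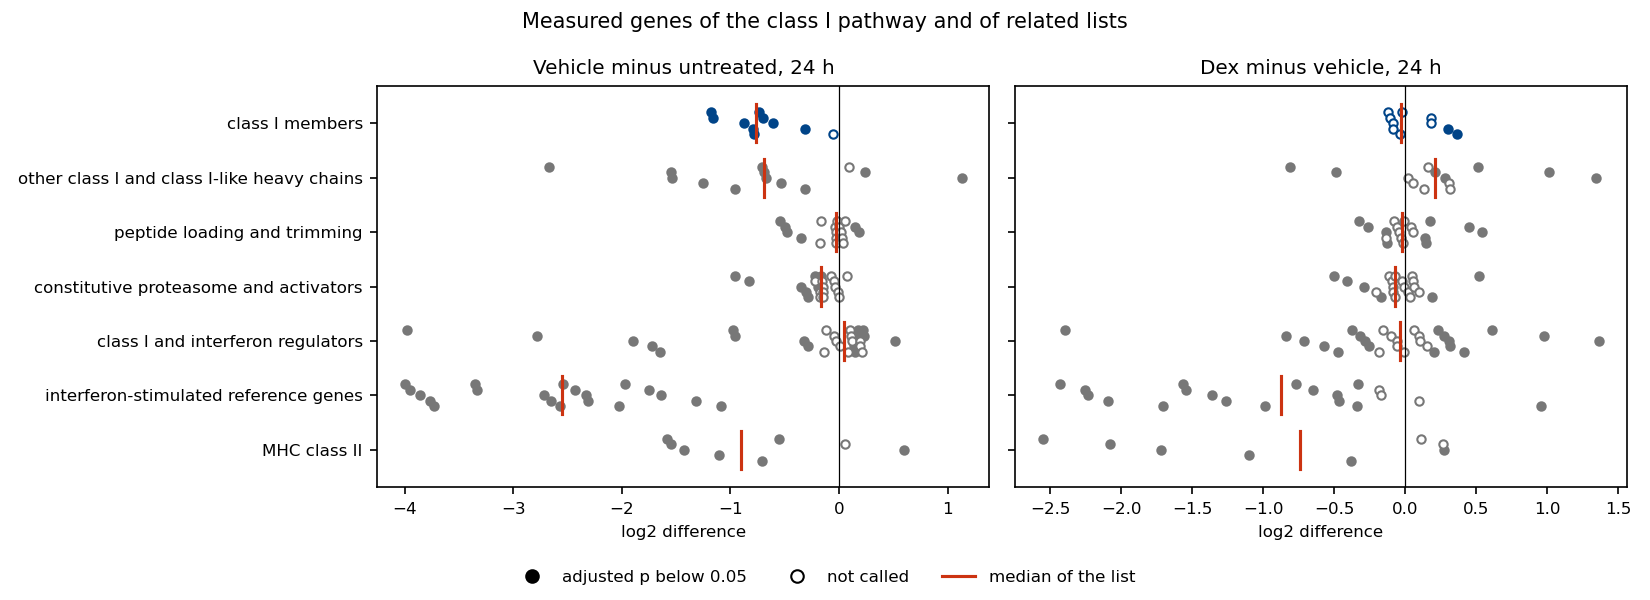
Log2 differences (x axis) of each measured gene, averaged over WT and KO, for vehicle minus untreated (left) and Dex minus vehicle (right) at 24 h, by list (y axis); filled points have an adjusted p below 0.05 and the red bar is the list's median. Left, the 10 class I genes have a median of -0.76, and the interferon-stimulated genes -2.55; right, the class I median is -0.03, against -0.88 for the interferon-stimulated and -0.74 for the MHC class II genes.

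Interferon-stimulated genes and MHC class II genes were read beside them. All 20 interferon-stimulated genes were lower at 8 h and at 24 h of vehicle, with a median of -2.55 at 24 h. With Dex at 24 h a further 16 of 20 were lower and 1 higher (median -0.88), among them Ifit3 (-2.43 ± 0.28), Ifit1 (-2.23 ± 0.31), Ifit2 (-2.10 ± 0.25) and Rtp4 (-1.71 ± 0.19). Of 10 MHC class II genes 8 were measured, of which 6 were lower and 1 higher after 24 h of vehicle. With Dex at 24 h 5 were lower and 1 higher, with H2-Ab1 at -1.72 ± 0.11, H2-Aa at -2.08 ± 0.15, H2-Eb1 at -2.55 ± 0.17 and the invariant chain Cd74 at -1.10 ± 0.12. Over the same contrast, where 26.8% of all genes were called lower, 0 of the 10 class I genes were called lower; 6 of their 10 values were below 0, the lowest at -0.12. The difference between the lists was not tested. The medians at 24 h of vehicle, leaving out KO vehicle 24 h replicate 2, were -0.76 for the class I genes, -2.55 for the interferon-stimulated and -0.90 for the class II genes, and those with Dex -0.03, -0.82 and -0.75. The lower calls with Dex were then 0, 15 and 5 in these lists. In the other lists of the pathway no count at 24 h moved by more than 2 genes.

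Of the 28 regulators of class I and interferon signalling, all measured, 7 were higher and 9 lower after 24 h of vehicle (median 0.05). The genes named next for vehicle were picked from those that fell, so they do not stand for the list. Stat2 (-1.72 ± 0.13), Irf9 (-0.96 ± 0.07) and Irf7 (-3.98 ± 0.17), the factors of interferon signalling, fell, and Irf1, a direct activator of class I genes, fell by 0.32 on the log2 scale. With Dex at 24 h 9 were higher and 9 lower, where 26.8% of all genes were called higher and 26.8% lower. The receptor chain Ifngr1 (1.36 ± 0.06), Irf2 (0.98 ± 0.06) and Stat3 (0.61 ± 0.08) rose, and the receptor chain Ifnar1 (-0.47 ± 0.06) and the class II transactivator Ciita (-2.40 ± 0.36) fell. At 2 h of Dex Irf1 fell (-0.79 ± 0.10, adjusted p = 1.48e-07, edgeR quasi-likelihood) and Irf2 rose (1.05 ± 0.06). At 24 h the Irf1 difference was -0.01 ± 0.10.

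The balance within the pathway was read from ratios of levels per kilobase inside each library, 5 ratios over 6 comparisons of 6 libraries against 6, with two-sided exact permutation tests whose smallest possible p is 0.00216 and p-values adjusted over the 30 tests. Exon lengths set the absolute size of a ratio but not its change. The ratio of H2-K1 to H2-D1 had a median of 0.280 in untreated cells (0.257 to 0.322), 0.183 after 24 h of vehicle (0.154 to 0.213) and 0.230 after 24 h of Dex (0.219 to 0.249). Neither step overlapped (exact permutation p = 0.00216, adjusted 0.00406, for each). Without KO vehicle 24 h replicate 2 the log2 changes were -0.66 and 0.36 (exact permutation, adjusted p = 0.00812 for each). How reads were shared between these paralogs enters this ratio, and its part was not tested.

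The immunoproteasome subunits were set beside the constitutive subunits they replace. Psmb8 to Psmb5 fell from 0.492 in untreated cells to 0.300 at 8 h and 0.295 at 24 h of vehicle, without overlap (exact permutation, adjusted p = 0.00406 for each), and with Dex it was 0.311 at 8 h and 0.297 at 24 h (exact permutation, adjusted p = 0.104 and 0.636). Psmb9 to Psmb6 fell from 0.154 to 0.102 at 8 h and 0.116 at 24 h of vehicle. With Dex it was 0.150 at 8 h and 0.195 at 24 h, above every vehicle library of the same time (exact permutation, adjusted p = 0.00406 for each). At 24 h all Dex libraries (0.178 to 0.202) lay also above all untreated ones (0.138 to 0.176), a comparison read from the values without a test. Psmb10 to Psmb7 fell from 1.81 to 1.12 and 1.22 and was 1.41 and 1.75 with Dex, again without overlap between Dex and vehicle (exact permutation, adjusted p = 0.00406 for each). The constitutive partners moved as well. With Dex at 8 h Psmb6 (-0.55 ± 0.09), Psmb5 (-0.35 ± 0.07) and Psmb7 (-0.18 ± 0.07) were all called lower (adjusted p = 3.94e-06, 5.62e-05 and 0.0285, edgeR quasi-likelihood), while Psmb9 was at 0.09 and Psmb10 at 0.15 without a call. At 24 h of Dex Psmb6 fell by 0.50 and Psmb7 by 0.17 on the log2 scale, whereas Psmb5 was at -0.08 ± 0.07 (adjusted p = 0.313, edgeR quasi-likelihood). With Dex at 24 h the Psmb9 and Psmb10 ratios were thus higher and the Psmb8 ratio was not called; the difference between the ratios was not tested. Leaving out KO vehicle 24 h replicate 2, the log2 changes at 24 h were, for vehicle and then Dex, -0.73 and -0.04 for Psmb8 to Psmb5, -0.41 and 0.72 for Psmb9 to Psmb6 and -0.59 and 0.55 for Psmb10 to Psmb7. The exact permutation test gave an adjusted p of 0.636 for Psmb8 to Psmb5 with Dex and 0.00812 for each of the others.

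Tap1 to Tap2, the partners in the peptide transporter, fell from 0.940 in untreated cells to 0.630 at 8 h and 0.519 at 24 h of vehicle, without overlap (exact permutation, adjusted p = 0.00406 for each). With Dex it was 0.532 at 8 h, lower than with vehicle though the groups overlapped (exact permutation, adjusted p = 0.0229), and 0.634 at 24 h (exact permutation, adjusted p = 0.0742). Without KO vehicle 24 h replicate 1, whose ratio of 0.742 was the highest of its group, the last comparison passed (log2 difference 0.36, exact permutation, adjusted p = 0.00764). When KO vehicle 24 h replicate 2 was left out instead, the log2 change at 24 h was -0.85 with vehicle (exact permutation, adjusted p = 0.00812) and 0.27 with Dex (exact permutation, adjusted p = 0.100).

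**Figure D4:**
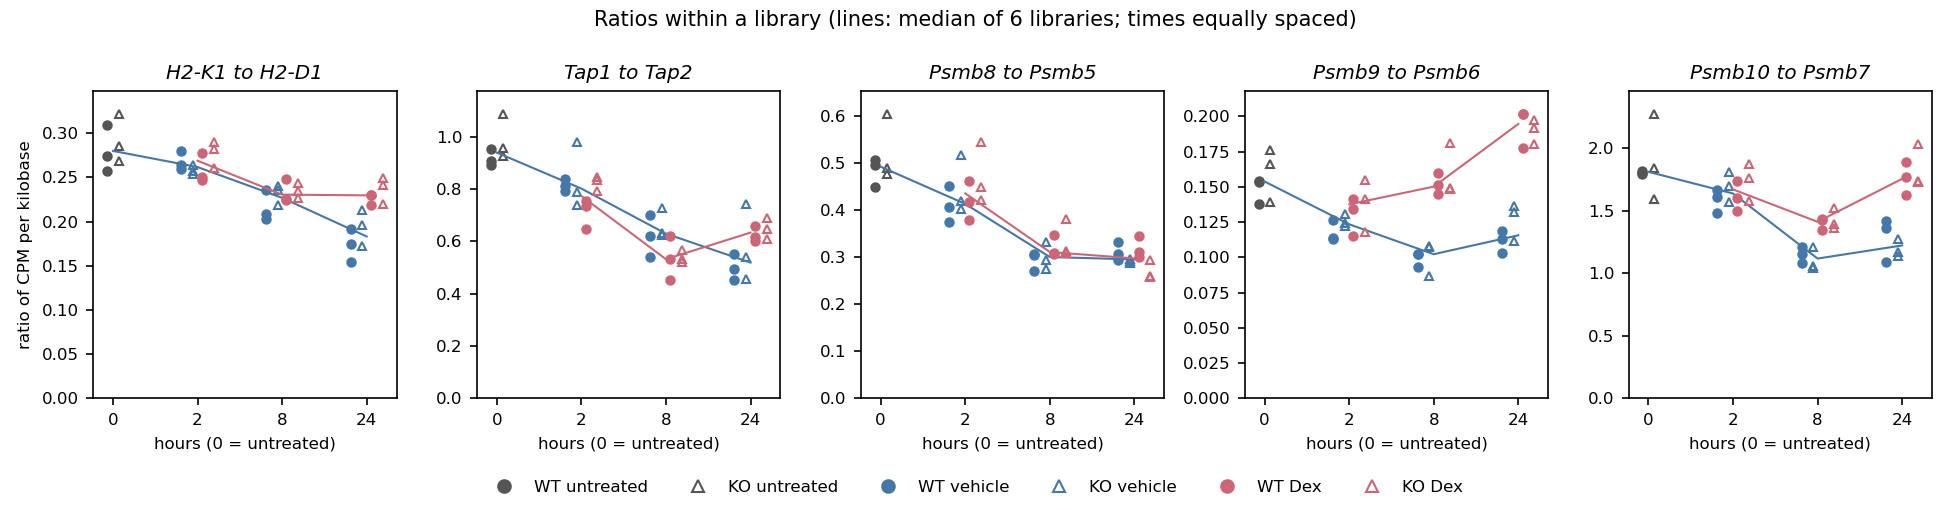
Ratios of levels per kilobase within each library (y axis from 0) against hours (x axis, times equally spaced; 0 is untreated), for 5 gene pairs; circles are WT, triangles KO, grey untreated, blue vehicle, red Dex, and lines join medians of 6 libraries. The ratios fall with vehicle, and at 24 h the red points of Psmb9 to Psmb6, Psmb10 to Psmb7 and H2-K1 to H2-D1 lie above all blue ones, while those of Psmb8 to Psmb5 do not.

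How closely the genes followed one another was described by Pearson's r over the 14 group means of log2 CPM between each gene and the mean of the other 9, each centred and scaled. The points share libraries and treatments, so no p is given. Tap1 had the highest r, 0.973, followed by Tapbp (0.913) and H2-K1 (0.893). The immunoproteasome subunits had 0.856 (Psmb8), 0.808 (Psmb9) and 0.777 (Psmb10), Nlrc5 0.831, Tap2 0.742 and B2m 0.721. H2-D1 was lowest at 0.357. Outside all lists, and among genes averaging at least 5 CPM, those most like the mean of the 10 were Sp100 (0.988), Gbp6 (0.984), Slfn4 (0.984), Tspo (0.980) and Pld4 (0.974). After 24 h of vehicle their log2 differences were -1.62, -3.05, -3.99, -1.06 and -1.01, and with Dex at 24 h they were 0.05, -0.22, -0.11, 0.18 and 0.02. The same 5 genes were the most alike without KO vehicle 24 h replicate 2, in the same order (0.987 to 0.974), Tap1 again had the highest r of the members (0.971) and H2-D1 the lowest (0.385).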

How the data were processed

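RNA of 42 libraries was compared by gene. The deposited values are estimated counts per gene, as the authors made them; the submitters' processing notes name fastp, HISAT2, Salmon and GRCm38 without versions or roles. Which annotation was counted, and how the 11160 genes were selected, is not given in the sources used here. No gene in the table has fewer than 256 counts in all. Such estimates share reads between paralogs.

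The counts were rounded and scaled by TMM. A model of 14 group means over all libraries was tested with edgeR 4.0.16 (R 4.3.3), quasi-likelihood F test, Benjamini-Hochberg over 11160 genes, called at 0.05; the filter on low counts removed 0 genes. Ratios were tested in scipy 1.17.1. The lowest count of any of the 10 genes in a library was 344, for Nlrc5 in WT untreated replicate 3. The part of counting error in the spread between libraries was not tested gene by gene. Gene places and exon lengths are from GENCODE M21.

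The genes, lists and tests were chosen with earlier results of these data known. Named beside the 10 genes are up to 4 per list with the lowest p for Dex at 24 h and the 5 most alike outside the lists, of genes averaging at least 5 CPM. H2-T22, H2-T23, H2-T24, Tapbpl, Erap1, Psmb5, Psmb7, Stat2, Irf1, Irf7, Irf9, Ciita, Fkbp5 and Ms4a4a, and the genes under the other observations, were named after their values were seen. Replicate numbers were taken as pairs where every correlation of same-numbered deviations passed 0.1: Dex averaged at 8 h (lowest 0.111), Dex in WT at 8 and 24 h, in KO at 2 and 8 h, KO against WT with vehicle at 2, 8 and 24 h and with Dex at 2 h, and vehicle at 8 against 2 h.

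The alternatives were scaling by median ratios, testing without the filter or only genes averaging 5 CPM or more, DESeq2 1.42.0, a replicate block, fitting only the libraries compared, summing counts over conditions, summing paralogs and leaving out each library. The sum of H2-K1 and H2-D1, the vehicle steps, the ratios without a library, and the gene lists and likeness without KO vehicle 24 h replicate 2 were added after seeing the data.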

Additional observations from a re-analysis of the deposited data

Results flagged for a closer look

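The effect of Dex differed between 24 h and 8 h for 2 of the 10 genes by the test of that difference (edgeR quasi-likelihood, averaged over WT and KO). For Tap2 the 24 h effect minus the 8 h effect was -0.50 ± 0.12 (SE; adjusted p = 0.00180), from an effect of 0.41 at 8 h to -0.08 at 24 h. For B2m it was -0.24 ± 0.09 (adjusted p = 0.0384), from 0.22 to -0.02. Leaving out 1 library at a time, the Tap2 call held in 24 of 24 fits and the B2m call in 10 of 24 (-0.27 to -0.20). Tap2 without KO vehicle 24 h replicate 2 had -0.48 (adjusted p = 0.00421) and B2m -0.22 (adjusted p = 0.0730, edgeR quasi-likelihood).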

How the results depend on the processing

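The 8 and 9 calls of vehicle against untreated cells at 8 and 24 h kept their number under every alternative run, leaving out 1 library included; the paralog sums, read for H2-K1 and H2-D1 alone, are given with those genes. The 3 calls at 2 h became 1 with the compared libraries alone, and 1 to 3 without 1 library. Dex averaged over WT and KO gave 2 to 4 calls at 8 h and 2 to 3 at 24 h without 1 library, and its change from 8 to 24 h gave 1 to 2. Within WT, the 2 calls at 8 h became 1 by median-ratio scaling, by a mean of at least 5 CPM and by DESeq2, and 0 to 1 without 1 library; the 2 at 24 h became 1 by median-ratio scaling and with the compared libraries alone, and 1 to 2 without 1 library; the 0 at 2 h became 1 with the compared libraries alone. Within KO, the 2 calls at 8 h became 1 by median-ratio scaling, by a mean of at least 5 CPM and by DESeq2, and 0 to 2 without 1 library; the 2 at 24 h were 1 to 2 without 1 library. With 9 heavy chains summed, the H2-D1 value of 0.00 for vehicle at 8 h became -0.12 (adjusted p = 0.0287, edgeR quasi-likelihood), the sum then holding genes that fell. The cause of the other changes was not tested.

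With the replicate block, Dex at 24 h averaged over genotypes gave 4 calls in place of 2, adding Tap1 (0.18, adjusted p = 0.0376) and Psmb9 (0.18, adjusted p = 0.0234, edgeR quasi-likelihood); there the numbers did not pass the check for pairs. The block added Psmb8 for Dex in KO at 8 h (-0.25, adjusted p = 0.0253), where they did, and Psmb8 for vehicle at 2 h, H2-K1 for the change of the Dex effect from 8 to 24 h and Tap1 for vehicle from 8 to 24 h, where they did not. It ended 0 calls. The lowest count of any of the 10 genes in a library was 344.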

Other observations

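Likeness to the mean of the 10 class I genes over the 14 group means was also read for the listed genes other than cell markers. The highest values were those of Zbp1 (r = 0.979), Tapbpl (0.975), H2-T22 (0.974), Irgm1 (0.974), Gbp2 (0.971), H2-T23 (0.961) and Irf9 (0.957). Of these, Zbp1, Irgm1 and Gbp2 are from the list of interferon-stimulated genes. Fcgrt (-0.72), Mr1 (-0.59) and Hfe (-0.52), whose products also pair with B2m, had negative values. These are descriptions over groups that share libraries and treatments.

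Together the 10 genes took between 1.04% of all counts (WT Dex 24 h replicate 3) and 1.58% (KO untreated replicate 1).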
